A study of Canis lupus familiaris with 13 samples.

Results

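The core loop of the circadian clock was followed in 13 RNA libraries from dog skeletal muscle through 10 genes, of 30951 in the deposited table. The members were taken by symbol: the activators ARNTL, CLOCK and NPAS2, the repressors PER1, PER2, PER3, CRY1 and CRY2, and the nuclear receptors NR1D1 and NR1D2. Each symbol stood on a single row, and all 10 rows passed the filter on low counts that left 14629 genes. The clock runs in nearly every mammalian cell. ARNTL (also called BMAL1) pairs with CLOCK or its relative NPAS2 and switches on the PER, CRY and NR1D genes. PER and CRY proteins then block that pair, and NR1D1 and NR1D2 (REV-ERB alpha and beta) shut off the ARNTL gene itself, so that in rodent muscle ARNTL transcripts peak at about the opposite time of day from those of NR1D1 and PER genes.

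The libraries came from biopsies of the biceps femoris, a thigh muscle, of 4 wild type dogs aged 9-10 months, taken under local anaesthesia. Insulin-stimulated libraries were sample 1 (dogs 1 to 4, n = 4), sample 2 (dogs 1 to 4, n = 4) and sample 3 (dogs 1 and 2, n = 2). Basal insulin libraries were all sample 0 and came from dogs 2, 3 and 4 (n = 3), so dog 1 had no basal library. The labels state neither what the sample number stands for nor the insulin dose, the hour of any biopsy or the time between biopsies. Since no insulin library was a sample 0, stimulation cannot be told apart from sample number here. Nor can it be told apart from any difference in biopsy hour between the 2 groups. The design text deposited with the series speaks of mouse retina, and the labels of the single libraries were followed instead.

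Totals lay between 47333352 and 81948641 counts in insulin libraries and between 45200416 and 68278235 counts in basal libraries. Transcripts of 11 skeletal muscle fibre markers summed to between 264098 and 432930 CPM (counts scaled to a common library total) in insulin libraries and between 255506 and 328825 CPM in basal libraries. Insulin sample 2 of dog 1 stood apart, with 18.4% of its counts from the muscle actin ACTA1 and, on average over the other 12 libraries, the weakest correlation in log2 CPM (r = 0.943). PDK4, a kinase that falls in muscle when insulin acts, averaged 143 ± 128 CPM in insulin libraries (SD, n = 10) and 1759 ± 723 CPM in basal libraries (n = 3; edgeR adjusted p = 0.00187). Levels of different genes were not compared with each other, since transcript lengths did not come with the counts.

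The insulin and basal libraries were compared first, with each dog as its own block. ARNTL was higher with insulin, and PER2, PER3, CRY2 and NR1D2 were lower, in every insulin library set against the basal library of the same dog. CRY1 was nearly level, and CLOCK, NPAS2, PER1 and NR1D1 took opposite directions in different dogs. None of these differences passed correction over all genes: edgeR's quasi-likelihood test called 0 of 10 members at an adjusted p under 0.05, where 0.137% of all 14629 genes tested were called (20 genes). At an unadjusted p under 0.05 it held 5 of 10 members, against 4.12% of all genes. These were ARNTL on the higher side (1.68% of all genes) and PER2, PER3, CRY2 and NR1D2 on the lower (2.44% of all genes). DESeq2 called 1 of 10 members (ARNTL, adjusted p = 0.00881), where it called 0.711% of genes. The median log2 fold change (insulin over basal) was -0.42 over the 10 members and -0.0013 over all genes tested, and the median size of the change, without its sign, was 0.56 for members and 0.17 for all genes. In bulk tissue a lower share of a cell type and less RNA per cell cannot be told apart.

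**Figure D1:**
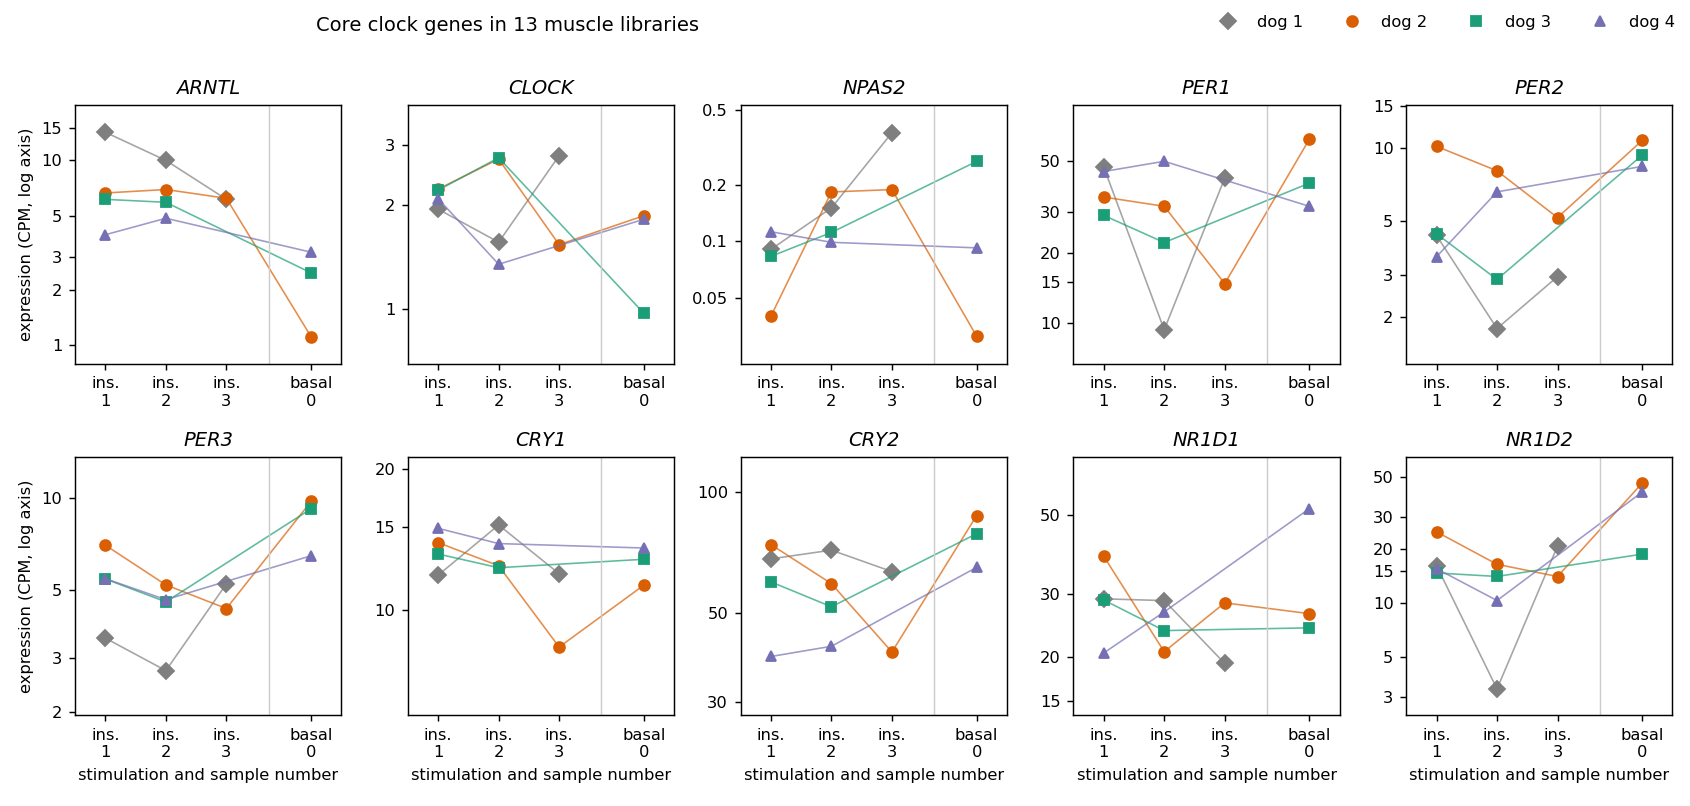
Expression of each core clock gene in CPM (log axis) in all 13 libraries, by stimulation and sample number, with insulin samples 1, 2 and 3 left of the basal sample 0; each marker is 1 library and a line joins the libraries of 1 dog. ARNTL lies between 3.96 and 14.2 CPM in the 10 insulin libraries, above the 1.11 to 3.19 CPM of the 3 basal libraries.

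ARNTL (ENSCAFG00000008095), the one activator that both pairs share, had the largest log2 fold change of the members in this comparison with all libraries. In insulin sample 1 it stood at 14.2, 6.65, 6.15 and 3.96 CPM in dogs 1, 2, 3 and 4, and in insulin sample 2 at 9.98, 6.95, 5.93 and 4.86 CPM. In insulin sample 3 it stood at 6.15 CPM in dog 1 and 6.23 CPM in dog 2. The basal libraries of dogs 2, 3 and 4 held 1.11, 2.46 and 3.19 CPM. The groups did not overlap: all 10 insulin libraries lay above all 3 basal libraries, a pattern that held for 1 of 10 members and for 0.321% of all genes tested. The opposite pattern, all insulin libraries below all basal ones, held for 0 members and 0.608% of genes. The log2 fold change was 1.38 ± 0.36 (SE; edgeR adjusted p = 0.302), or 2.6-fold. The size differed between dogs, with a mean log2 difference from the basal library of 2.53 in dog 2, 1.28 in dog 3 and 0.46 in dog 4. Without the basal library of dog 2, the lowest of the 13, the log2 fold change of ARNTL was 0.87 ± 0.33 (edgeR adjusted p = 0.990), smaller in size than those of PER2 (-1.06) and NR1D2 (-1.08). Without the basal library of dog 3, NR1D2 (-1.49) was also past ARNTL (1.43) in size.

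CLOCK (ENSCAFG00000002140), the usual partner of ARNTL, had 66 to 185 counts per library. It averaged 2.12 ± 0.53 CPM in insulin libraries (SD, n = 10) and 1.56 ± 0.50 CPM in basal libraries (n = 3), a log2 fold change of 0.44 ± 0.33 (SE; edgeR adjusted p = 1). The groups overlapped, with 7 of 10 insulin libraries above the highest basal library. Dog 3 carried most of the difference: its insulin samples 1 and 2 held 2.22 and 2.75 CPM and its basal library 0.974 CPM. In dog 4 they held 2.09 and 1.35 CPM, against 1.82 CPM at basal. NPAS2 (ENSCAFG00000002223), which can stand in for CLOCK, was close to the counting limit, with 3 to 25 counts in insulin libraries and 2 to 18 counts in basal libraries. Its highest level was 0.377 CPM in insulin sample 3 of dog 1 and its lowest 0.0314 CPM in the basal library of dog 2. No difference in NPAS2 was called, and its direction changed with the settings. It also differed between dogs, with mean log2 differences of 1.23 in dog 2, -1.20 in dog 3 and 0.14 in dog 4.

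Among the period genes, whose proteins carry the repressing arm, PER2 and PER3 were lower with insulin in all 7 within-dog comparisons, while PER1 was not. PER2 (ENSCAFG00000012433) stood at 4.36, 10.2, 4.43 and 3.55 CPM in insulin sample 1 of dogs 1 to 4, at 1.79, 8.08, 2.86 and 6.61 CPM in sample 2, and at 2.94 and 5.17 CPM in sample 3 of dogs 1 and 2. Its basal libraries held 10.8, 9.39 and 8.43 CPM in dogs 2, 3 and 4. Of the 10 insulin libraries 9 lay below the lowest basal library, the exception being sample 1 of dog 2. The log2 fold change was -0.85 ± 0.31 (SE; edgeR adjusted p = 0.855). Dog 3 showed the largest mean log2 difference for PER2 (-1.39) and dog 2 the smallest (-0.52).

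PER3 (ENSCAFG00000019666) varied less between libraries than PER2. It stood at 3.48, 7.0, 5.43 and 5.44 CPM in insulin sample 1 of dogs 1 to 4, at 2.72, 5.19, 4.57 and 4.65 CPM in sample 2, and at 5.23 and 4.35 CPM in sample 3 of dogs 1 and 2. Basal libraries held 9.73, 9.21 and 6.47 CPM in dogs 2, 3 and 4, again with 9 of 10 insulin libraries below the lowest of them. The log2 fold change was -0.70 ± 0.23 (SE; edgeR adjusted p = 0.678), with mean log2 differences of -0.84, -0.88 and -0.36 in dogs 2, 3 and 4.

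PER1 (ENSCAFG00000016984), the period gene that also answers quickly to glucocorticoids and cyclic AMP, was divided by dog. In dog 2 it stood at 34.9, 31.9 and 14.8 CPM in insulin samples 1, 2 and 3, against 62.0 CPM at basal. In dog 3 the insulin samples 1 and 2 held 29.1 and 22.2 CPM, against 40.1 CPM at basal. Dog 4 ran the other way, with 45.0 and 49.8 CPM in insulin samples 1 and 2 and 31.8 CPM at basal. Dog 1, without a basal library, ranged from 9.36 CPM in sample 2 to 47.0 CPM in sample 1. The log2 fold change of PER1 was -0.53 ± 0.42 (SE; edgeR adjusted p = 1), and without the basal library of dog 2 it was -0.078 ± 0.53.

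The cryptochromes CRY1 and CRY2 are partners of the period proteins and the strongest repressors of the loop; no test set the one against the other. CRY1 (ENSCAFG00000001797) was the steadiest member, with a 1.83-fold range over all 13 libraries. It averaged 12.8 ± 1.97 CPM in insulin libraries (SD, n = 10) and 12.6 ± 1.16 CPM in basal libraries (n = 3), a log2 fold change of 0.04 ± 0.17 (SE; edgeR adjusted p = 1). CRY2 (ENSCAFG00000009379) was lower with insulin in all 7 within-dog comparisons. It stood at 68.1, 73.9, 59.7 and 38.9 CPM in insulin sample 1 of dogs 1 to 4, at 71.6, 59.1, 51.8 and 41.3 CPM in sample 2, and at 63.3 and 40.0 CPM in sample 3 of dogs 1 and 2. Its basal libraries held 87.3, 78.6 and 64.9 CPM in dogs 2, 3 and 4, and 7 of 10 insulin libraries lay below the lowest of these. The log2 fold change was -0.60 ± 0.16 (SE; edgeR adjusted p = 0.385). The dogs were close to each other here, with mean log2 differences of -0.64, -0.50 and -0.69.

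**Figure D2:**
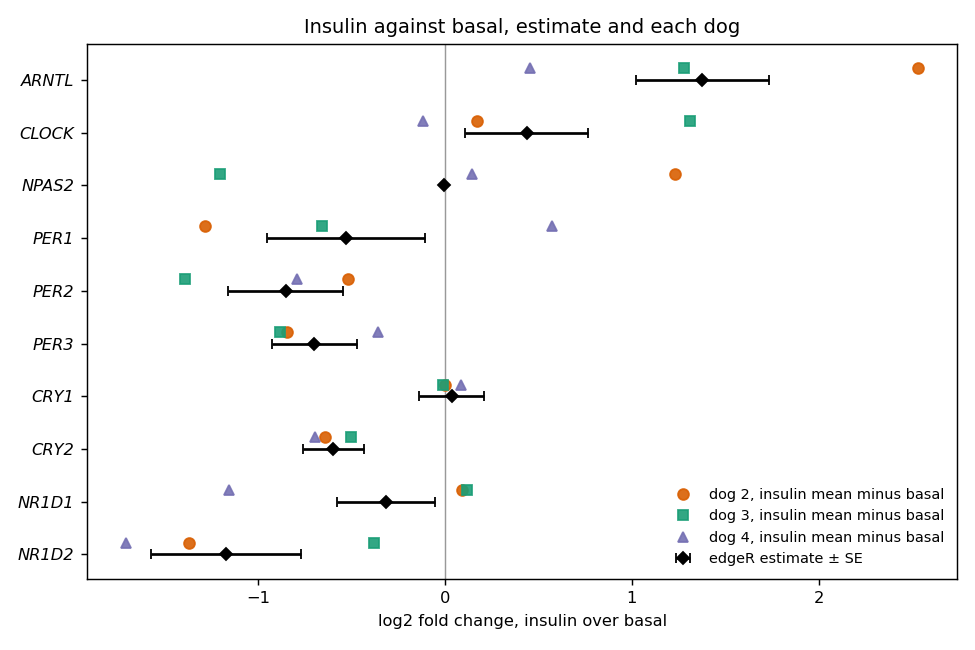
Log2 fold change of insulin over basal for each core clock gene: black diamonds with bars are the edgeR estimate and its SE, coloured markers the mean of a dog's insulin libraries minus its basal library in log2 CPM. ARNTL is right of 0 in dogs 2, 3 and 4, PER2, PER3, CRY2 and NR1D2 are left of 0 in all of them, and PER1 and NR1D1 have dog 4 on the other side from dogs 2 and 3; no bar is drawn for NPAS2, whose SE, taken from the ratio of an estimate near 0 to its F statistic, is unreliable.

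Of the REV-ERB genes, NR1D2 (ENSCAFG00000005754) stood at 16.1, 24.8, 14.6 and 15.5 CPM in insulin sample 1 of dogs 1 to 4, at 3.33, 16.4, 14.0 and 10.3 CPM in sample 2, and at 20.6 and 14.0 CPM in sample 3 of dogs 1 and 2. Basal libraries held 46.2, 18.6 and 41.2 CPM in dogs 2, 3 and 4. All 7 within-dog comparisons were lower with insulin, but the basal library of dog 3 lay below 2 insulin libraries of other dogs, so 8 of 10 were under the lowest basal library. The log2 fold change was -1.17 ± 0.40 (SE; edgeR adjusted p = 0.807), with mean log2 differences of -1.37 in dog 2, -0.38 in dog 3 and -1.70 in dog 4. Without insulin sample 2 of dog 1, the library that stood apart and the lowest for NR1D2, the estimate was -1.17 ± 0.23 (edgeR adjusted p = 0.0783). That was the lowest adjusted p for NR1D2 with 1 library or 1 dog left out. Without the basal library of dog 2 the estimate was -1.08 ± 0.53, without that of dog 3 -1.49 ± 0.46 and without that of dog 4 -0.92 ± 0.48.

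NR1D1 (ENSCAFG00000016150) averaged 26.4 ± 5.71 CPM in insulin libraries (SD, n = 10) and 34.2 ± 15.6 CPM in basal libraries (n = 3), a log2 fold change of -0.32 ± 0.26 (SE; edgeR adjusted p = 1). The largest gap was in dog 4, whose insulin samples 1 and 2 held 20.5 and 26.7 CPM, against 52.2 CPM at basal. The insulin samples 1, 2 and 3 of dog 2 held 38.3, 20.6 and 28.3 CPM, against 26.4 CPM at basal, and those of dog 3 held 28.9 and 23.7 CPM, against 24.1 CPM. Without the basal library of dog 4 the sign of NR1D1 turned, to 0.13 ± 0.25.

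Across the 7 within-dog comparisons, 1 member (ARNTL) was higher in all of them and 4 members (PER2, PER3, CRY2 and NR1D2) were lower in all. Of all genes tested, 2.8% were higher in all 7 and 3.44% lower in all 7. Comparisons of 1 dog share its basal library and are not independent. The basal library of dog 2 held the highest level of 5 members (PER1, PER2, PER3, CRY2 and NR1D2) and the lowest of 2 (ARNTL and NPAS2) among the 13 libraries. Insulin sample 2 of dog 1 held the lowest level of 4 members (PER1, PER2, PER3 and NR1D2) and the highest of CRY1.

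**Figure D3:**
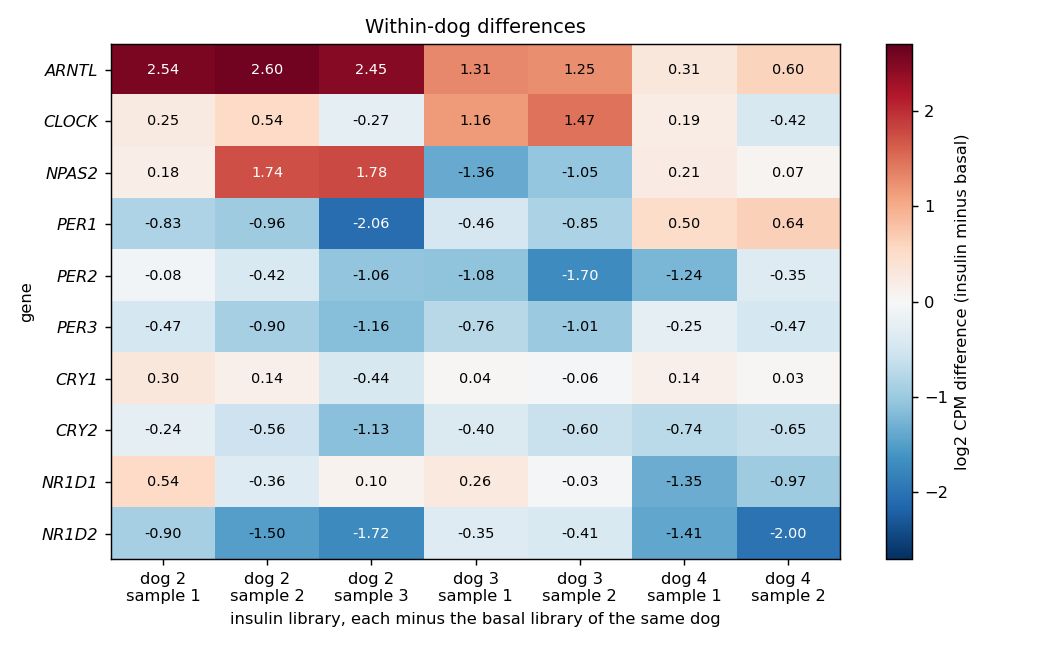
Difference in log2 CPM between each insulin library and the basal library of the same dog (columns, 7 libraries) for each core clock gene (rows), with red for higher with insulin and blue for lower. The ARNTL row is positive throughout, from 0.31 to 2.60, and the PER2, PER3, CRY2 and NR1D2 rows are negative throughout.

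Markers of other cells were measured in the same libraries. Of 9 neutrophil markers 8 were in the table and 5 could be tested, and all 5 had a negative log2 fold change (median -1.46). Their 8 transcripts summed to 23.3 to 64.5 CPM in insulin libraries and 30.8 to 73.6 CPM in basal libraries, with CAMP at 0 counts throughout. S100A8 averaged 31.0 CPM with insulin and 42.9 CPM at basal (log2 fold change -0.50). Others were near the counting limit: in the same order, CXCR2 averaged 0.090 and 0.25 CPM and LTF 0.41 and 0.73 CPM. The 6 fibroblast markers all had a negative log2 fold change (median -0.44). They summed to 321 to 1186 CPM in insulin libraries (median 657 CPM) and 228 to 2895 CPM in basal libraries (median 670 CPM). Red blood cell markers were lower for 3 of 5 tested (sums of 36.5 to 51.4 CPM with insulin and 35.1 to 46.2 CPM at basal), with HBB and HBA1 not matched by symbol. Other lists were mostly higher with insulin: endothelium (4 of 6 tested), smooth muscle and pericyte (4 of 5) and nerve and Schwann cell (3 of 3). Macrophage and monocyte (4 of 5), lymphocyte (3 of 5) and adipocyte markers (3 of 4) were mostly lower. None of the markers in these lists passed correction, and their part in the clock results was not tested.

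The sample numbers were then compared separately, with all 4 numbers in the model. Samples 1 and 2 were each set against the same 3 basal libraries, so the results share their controls. Dog 1 had no basal library, but the differences between its insulin samples entered these fold changes. In sample 1 against sample 0, edgeR called 0 of 10 members and 0% of all genes, with 2 members (ARNTL and CRY2) and 2.99% of genes at an unadjusted p under 0.05. DESeq2 called 0 members and 0.273% of genes there. In sample 2 against sample 0, edgeR called 0 of 10 members and 0.0479% of genes, with 5 members (ARNTL, PER2, PER3, CRY2 and NR1D2) and 4.95% of genes at an unadjusted p under 0.05. DESeq2 called 1 member, NR1D2 (adjusted p = 0.0493), where it called 0.499% of genes.

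For ARNTL the log2 fold change over sample 0 was 1.45 ± 0.42 in sample 1 and 1.36 ± 0.41 in sample 2 (SE). CRY2 had -0.51 ± 0.16 in sample 1 and -0.61 ± 0.16 in sample 2. The estimates for PER2 were -0.67 ± 0.37 in sample 1 and -0.97 ± 0.36 in sample 2, and those for PER3 were -0.56 ± 0.26 and -0.88 ± 0.26 in the same order. NR1D2 had -0.85 ± 0.45 in sample 1 and -1.60 ± 0.44 in sample 2. Its within-dog log2 differences of sample 2 from basal were -1.50, -0.41 and -2.00 in dogs 2, 3 and 4. PER1 had -0.26 ± 0.52 and -0.75 ± 0.50, and NR1D1 had -0.18 ± 0.31 and -0.41 ± 0.31.

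**Figure D4:**
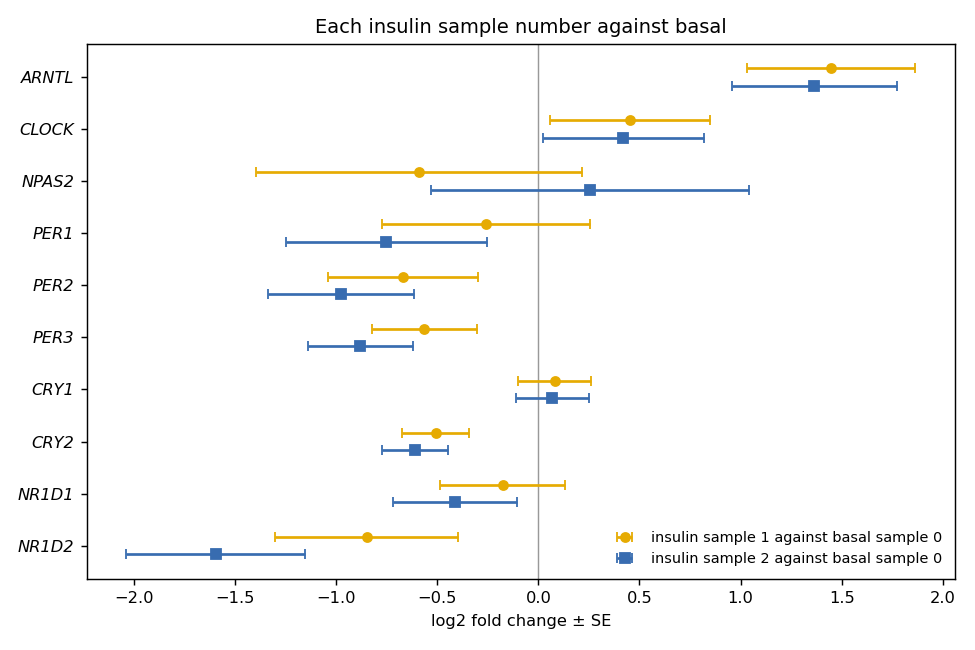
Log2 fold change and SE (bars) of each core clock gene in insulin sample 1 (yellow circles) and insulin sample 2 (blue squares) over the same basal sample 0 libraries. The estimates of sample 2 stand left of those of sample 1 for 9 of 10 genes, NPAS2 being the exception, as for 7670 of all 14629 genes tested. The bars of the 2 samples overlap for every gene shown. For ARNTL, CLOCK, CRY1 and CRY2 the direction of this shift turned with 1 library or dog left out.

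In sample 2 against sample 1, which covers all 4 dogs, edgeR called 0 of 10 members and 0% of all genes, and 0 members but 3.38% of genes had an unadjusted p under 0.05. DESeq2 also called 0 members and 0% of genes. The median log2 fold change was -0.17 over the members and -0.02 over all genes tested. NR1D2 had the largest negative difference, with a log2 fold change of -0.75 ± 0.41 (SE; edgeR adjusted p = 0.902). It was lower in sample 2 in 4 of 4 dogs, with log2 differences of -2.26 in dog 1, -0.60 in dog 2, -0.064 in dog 3 and -0.59 in dog 4. PER3 was also lower in 4 of 4 dogs (-0.32 ± 0.24, edgeR adjusted p = 0.902). These were 2 of 10 members, where 6.82% of all genes were lower in all 4 dogs. ARNTL differed little, at -0.08 ± 0.35, with 2 dogs in each direction.

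Sample 3 came from dogs 1 and 2 and is given as values. In dog 2 it held the lowest level of the dog's own libraries for PER1, PER2, PER3, CRY1, CRY2, CLOCK and NR1D2. In dog 1 sample 3 held 42.1 CPM of PER1 and 20.6 CPM of NR1D2, against 9.36 and 3.33 CPM in sample 2 of that dog. ARNTL was nearly equal in both dogs at sample 3, at 6.15 CPM in dog 1 and 6.23 CPM in dog 2.

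Differences between dogs at a given sample number were tested as a group of 3 terms. EdgeR called 0 of 10 members, where it called 3.13% of all genes, and 2 members (CRY2 and PER2) and 15.6% of genes had an unadjusted p under 0.05. CRY2 averaged 67.7 ± 4.15 CPM over the 3 insulin libraries of dog 1 (SD) and 40.1 ± 1.66 CPM over the 2 of dog 4 (edgeR adjusted p over dogs = 0.117). PER2 averaged 7.82 ± 2.53 CPM over the 3 insulin libraries of dog 2 and 3.03 ± 1.28 CPM over the 3 of dog 1 (edgeR adjusted p over dogs = 0.241). The insulin libraries of dog 1 had the highest mean ARNTL, 10.1 ± 4.00 CPM, and those of dog 4 the lowest, 4.41 ± 0.64 CPM.

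The genes whose patterns were most like those of 1 member of each arm were sought by the root mean square difference in log2 CPM, centred within each dog, over the 13 libraries, among 8270 genes with a symbol and a mean log2 CPM of at least 1. ARNTL, which itself varied by 0.72 (root mean square) about its dog means, was closest to PIM1, a serine/threonine kinase, at 0.39. SERTAD3, a transcriptional coregulator, followed at 0.42 and GDA, guanine deaminase, at 0.45. PER2, with a variation of 0.54, was closest to DGKI, a diacylglycerol kinase, at 0.13, to LENG8 at 0.19 and to FOSL2, an AP-1 transcription factor, at 0.20. NR1D1, with a variation of 0.36, was closest to ZNF606 at 0.19, TOE1 at 0.21 and ZBTB5 at 0.22. None of the other members that were ranked was among the 3 nearest. A root mean square difference sets genes that move in opposite directions far apart. It therefore cannot show whether such members change together. CLOCK and NPAS2 fell below the level asked for and were not ranked. PER3 and CRY2 were each at 0.38 from PER2, in places 364 and 365 of the ranking. PIM1 averaged 12.9 ± 6.94 CPM in insulin libraries and 6.31 ± 3.58 CPM in basal libraries (edgeR adjusted p = 0.717).

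Beyond the core loop, 23 of a list of 25 further clock genes were in the table, covering output factors, accessory loops, kinases and ligases. EdgeR called 0 of these 23 in insulin against basal, where it called 0.137% of all genes tested. At an unadjusted p under 0.05 it held 4 of the 23, against 4.12% of all genes. The median log2 fold change of the 23 was -0.07. Between sample numbers edgeR called 0 of them in each comparison. The shares of all genes there were 0% in sample 1 against 0, 0.0479% in sample 2 against 0 and 0% in sample 2 against 1. DESeq2 called 1, BHLHE40, in insulin against basal (adjusted p = 0.0186), where it called 0.711% of all genes. BHLHE40 was also the 1 called in sample 1 against sample 0 (DESeq2 adjusted p = 0.0496), against 0.273% of genes. In sample 2 against sample 0 and against sample 1 DESeq2 called 0 of the list, against 0.499% and 0% of genes. The 4 of lowest p each kept 1 direction in all 7 within-dog comparisons, as did 2.8% (higher) and 3.44% (lower) of all genes. BHLHE40, a repressor that competes for the sites of the ARNTL pair, stood between 130 and 291 CPM in insulin libraries and between 61.0 and 117 CPM in basal libraries, without overlap (as for 0.321% of all genes). Its log2 fold change was 0.94 ± 0.23 (SE; edgeR adjusted p = 0.263). NFIL3, a repressor of genes with D-box sites, averaged 2.22 ± 1.11 CPM in insulin libraries (SD, n = 10) and 0.870 ± 0.435 CPM in basal libraries (n = 3; log2 fold change 1.16 ± 0.35, edgeR adjusted p = 0.527). DBP, the activator that NFIL3 opposes, averaged 4.26 ± 1.30 CPM in insulin libraries and 8.29 ± 3.93 CPM in basal libraries (edgeR adjusted p = 0.388).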

How the data were processed

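Raw read counts per gene and library, deposited by the authors as whole numbers, were used for every result. The normalized signal deposited beside them is the same counts divided by 1 factor per library, per the file headers and a check of the values, and was not used. The submitters' processing notes name Bowtie 0.12.2 and CanFam3.1; the counting program, annotation release and strand setting are not given in the sources used here. Per the labels, libraries were made with SMART-Seq v4 and Nextera XT, which do not mark strand, so reads of overlapping genes can be counted together. By the RefSeq genes of UU_Cfam_GSD_1.0, 4 of the 10 members (ARNTL, CLOCK, PER2 and CRY1) overlap another gene. That table is of another build, so none of its coordinates is given.

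The count test was edgeR 4.0.16 under R 4.3.3 (filterByExpr by group, TMM scaling, robust quasi-likelihood F tests, Benjamini-Hochberg adjustment over all 14629 genes tested, threshold 0.05), and DESeq2 1.42.0 was an alternative. The model held the dog as a block with stimulation, or with sample number; dog 1 entered insulin against basal only through the spread. CPM are scaled to TMM library sizes, log2 CPM used a prior count of 2, and each SE is the log2 fold change over the square root of F. Repeat insulin libraries of a dog counted as separate observations beside its block term, so p-values measure the spread between these libraries, which come from 4 animals. The dog numbers name the animals; deviations from group means had a median r of 0.17 between libraries of 1 dog (15 pairs) and -0.066 between those of 2 dogs (47 pairs). Libraries of 1 stimulation differed by a chi-square per gene of 49.9 to 995, far above counting error. All 10 members were named in any case; the further clock genes were a list, of which those of lowest p were named except for 1 that is not reported here, and PDK4 was named as a check of the labels. The members and lists were chosen with earlier results of these data known.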

Additional observations from a re-analysis of the deposited data

Results flagged for a closer look

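Within groups of 4 to 10 libraries, a library far from the others was looked for in insulin sample 1, insulin sample 2 and all insulin libraries for each of the 10 members, 30 combinations in all, of which 5 passed Dixon's 95% critical value for the gap to the nearest library over the range. Chance flags about 1 in 20 groups, a rate for independent samples; these combinations share libraries and dogs, so the 5 cannot be set against it. In insulin sample 1 the library of dog 2 was high for PER2, at 10.2 CPM with the next at 4.43 CPM, and for NR1D2, at 24.8 CPM with the next at 16.1 CPM. The same library was the highest of the 10 insulin libraries for NR1D1, at 38.3 CPM with the next at 29.1 CPM. Insulin sample 3 of dog 2 was low for CRY1, at 8.32 CPM with the next at 11.9 CPM. Insulin sample 3 of dog 1 was high for NPAS2, at 0.377 CPM with the next at 0.188 CPM, from 25 counts.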

How the results depend on the processing

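The dog block changed no call among the members: with no replicate block 0 members passed in any comparison, while 6 genes passed in insulin against basal and 0 in sample 2 against sample 0. With counts summed per dog and stimulation 1 gene passed in insulin against basal, and it was not a member. DESeq2 called 104, 40 and 73 genes in insulin against basal, sample 1 against 0 and sample 2 against 0, with 1, 0 and 1 members. Without a filter on low counts edgeR called 140, 16 and 28 genes there, with 2 members (ARNTL, adjusted p = 0.00125, and NR1D2, adjusted p = 1.22e-05) in insulin against basal, and 793 genes between dogs; the cause was not tested. RLE scaling gave 4 genes in sample 1 against 0 and moved the median of all genes by at most 0.0075. NPAS2, near 0 in insulin against basal, turned to 0.0022 with RLE scaling, 0.0030 without a filter, 0.13 without the block, 0.018 in DESeq2 and 0.064 with summed counts.

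With 1 library or 1 dog left out in turn, 0 members passed in any comparison. Genes called ranged from 4 to 28 in insulin against basal, 0 to 8 in sample 1 against 0, 0 to 13 in sample 2 against 0 and 193 to 625 between dogs. ARNTL ranged from 0.87 to 1.91, PER2 from -1.06 to -0.59, PER3 from -0.85 to -0.61, CRY2 from -0.67 to -0.53 and NR1D2 from -1.50 to -0.91 in insulin against basal. Signs turned in that comparison for NPAS2 (-0.75 to 1.06), CRY1 (-0.017 to 0.099) and NR1D1 (-0.56 to 0.14). They turned in sample 1 against 0 for CRY1 (-0.012 to 0.16), NPAS2 (-1.14 to 0.37), NR1D1 (-0.55 to 0.36) and PER1 (-0.67 to 0.35). In sample 2 against 0 they turned for CLOCK (-0.019 to 0.76), NPAS2 (-0.60 to 1.26) and NR1D1 (-0.65 to 0.081). In sample 2 against 1 they turned for ARNTL (-0.31 to 0.17), CLOCK (-0.30 to 0.16), CRY1 (-0.14 to 0.077) and CRY2 (-0.19 to 0.011). NPAS2 had 2 to 25 counts per library, and every comparison with basal rested on only 3 basal libraries. What limited the tests was not tested.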
